A study of Mus musculus with 4 samples.

Results

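Type 2 cytokine genes are examined here across single CD45+ cells of the mouse nasal mucosa, by the cells that carried their transcripts. The genes were the 5 of 27998 listed genes with the symbols Il4, Il5, Il13, Il9 and Areg. They were chosen by symbol, with earlier results of these data known. A cell was counted as positive for a gene when it held at least 1 unique molecular identifier (UMI, a tag that marks 1 captured transcript molecule).

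Type 2 cytokines are the signals of allergic inflammation. IL-4 drives IgE class switching in B cells and the differentiation of T helper 2 (Th2) cells, IL-13 drives mucus production by epithelial cells, IL-5 supports eosinophils, IL-9 acts on mast cells, and amphiregulin, the product of Areg, is a ligand of the epidermal growth factor receptor that takes part in tissue repair. Th2 cells, group 2 innate lymphoid cells (ILC2s, which lack the T cell receptor and its CD3 chains), basophils and mast cells are their known sources, and the transcription factor GATA3 and the IL-33 receptor, encoded by Il1rl1, are shared by Th2 cells and ILC2s.

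The study held 4 libraries of CD45+ nasal mucosa cells from C57BL/6 mice aged 8 weeks, 1 library per treatment. Values are given in the order Vehicle, Vehicle-OVA, Ribavirin, Ribavirin-OVA. OVA stands for the ovalbumin model of allergic rhinitis, in which mice are sensitised by injection and then challenged in the nose with this egg protein, and ribavirin is an antiviral drug, given here as a spray against the viruses of the nose. How many mice gave each library was not stated, so the libraries have no replicates and no difference between groups was tested. The 95% intervals given in square brackets are exact (Poisson for levels, Clopper-Pearson for shares, conditional binomial for ratios), and cover counting error only.

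After filtering, 24305, 17206, 19642 and 8763 cells were kept in the 4 libraries, with 84099597 to 155829989 UMIs per library and a median of 3413 to 5105 UMIs per cell. Ptprc, which encodes CD45, had a UMI in 86.0% to 90.7% of the cells. The libraries shared 196 to 404 cell barcodes each with the others, and leaving these out moved none of the levels and shares compared in the closing section beyond their counting error. The neutrophil-like share was 69.5% in Vehicle-OVA against 31.04% to 37.2% in the other libraries, and the T cell-like cells held a median of 1, 2, 2 and 1 of the 8 neutrophil markers, whose part in the results below was not tested.

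In order to see where the genes lie, their positions were read from the mouse annotation (GENCODE M21, GRCm38). Il4 (ENSMUSG00000000869, chr11:53602982-53618669, minus strand, 3 exons), Il13 (ENSMUSG00000020383, chr11:53631324-53634702, minus strand, 4 exons) and Il5 (ENSMUSG00000036117, chr11:53720794-53725106, plus strand, 4 exons) form 1 cluster, with Rad50 (chr11:53649519-53707319) between Il13 and Il5. Il9 (ENSMUSG00000021538, chr13:56479277-56482246, minus strand, 5 exons) and Areg (ENSMUSG00000029378, chr5:91139599-91148432, plus strand, 6 exons) lie on other chromosomes.

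The promoters of the 3 clustered genes are shown because these genes were detected together in single cells. The 250 bases before the RefSeq start (GRCm38.p6) are given 5′ to 3′ on the strand of the gene, at chr11:53618666-53618915 for Il4 (the outer of its 2 RefSeq starts), chr11:53634703-53634952 for Il13 and chr11:53720544-53720793 for Il5, and capitals mark matches to 3 searched motifs on either strand. The motif of GATA factors was searched as AGATAA and as TGATAA only. Forms that end in G, such as AGATAG, were not searched, and the Il5 window holds AGATAG on the other strand (ctatct, not in capitals). The motif of NFAT, the factor through which receptor signals act on cytokine genes, was searched as GGAAA. The motif of STAT factors, which include the factor of the IL-4 receptor, was searched as TTC and GAA with any 4 bases between them.
Il4: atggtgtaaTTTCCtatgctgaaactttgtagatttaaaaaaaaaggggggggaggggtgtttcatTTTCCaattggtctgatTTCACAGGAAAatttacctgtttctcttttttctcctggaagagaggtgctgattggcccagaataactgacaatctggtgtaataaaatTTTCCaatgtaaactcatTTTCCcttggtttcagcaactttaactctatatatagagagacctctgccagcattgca
Il13: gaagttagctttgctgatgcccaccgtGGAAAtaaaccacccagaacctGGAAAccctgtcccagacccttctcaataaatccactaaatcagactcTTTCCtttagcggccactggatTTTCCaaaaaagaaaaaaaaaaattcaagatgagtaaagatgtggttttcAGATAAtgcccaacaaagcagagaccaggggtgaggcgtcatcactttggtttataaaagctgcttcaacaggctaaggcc
Il5: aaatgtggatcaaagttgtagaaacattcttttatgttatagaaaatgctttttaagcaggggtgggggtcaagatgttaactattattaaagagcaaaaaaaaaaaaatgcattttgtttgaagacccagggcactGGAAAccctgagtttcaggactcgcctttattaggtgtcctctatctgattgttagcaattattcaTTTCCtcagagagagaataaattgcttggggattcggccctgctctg
NFAT matches numbered 5 in Il4, 4 in Il13 and 2 in Il5, and 55.6% of 32851 promoters of this length held at least 1. The Il4 window held 1 STAT match, which overlaps 1 of its NFAT matches, and 5.85% of all promoters held one. The Il13 window held 1 match to the searched GATA forms, 81 to 76 bases before the start, and 16.6% of all promoters held at least 1. In the Il9 window 3 NFAT and 1 STAT matches were found, and in the Areg window 1 NFAT match. A match is a description of the letters, and binding was not measured.

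Next, the level of each gene was compared over all cells. Il4, Il5 and Il13 were each higher in the OVA library than in its partner, under vehicle and under ribavirin, Il9 was not detected, and Areg was close to even between Vehicle and Vehicle-OVA. Il4 had 32, 534, 33 and 1169 UMIs in Vehicle, Vehicle-OVA, Ribavirin and then Ribavirin-OVA, in 27, 82, 24 and 144 cells. Il13 had 32, 449, 72 and 2011 UMIs in the same order, in 21, 82, 23 and 201 cells. Il5 had 43, 98, 86 and 625 UMIs, in 23, 24, 35 and 90 cells. Transcripts of all 3 cytokines were thus found in few cells, with 2.29% of the Ribavirin-OVA cells for Il13 as the highest share, and 10 to 106 of the positive cells per gene and library held a single UMI.

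Expressed as UMIs per 1000000 UMIs of the library (CPM), the Il4 level was 26.9-fold higher in Vehicle-OVA than in Vehicle [18.8 to 39.7] and 65.6-fold higher in Ribavirin-OVA than in Ribavirin [46.5 to 95.8]. The Il13 level was 22.6-fold higher [15.8 to 33.5] and 51.8-fold higher [40.9 to 66.4]. The Il5 level was 3.67-fold higher [2.54 to 5.39] and 13.5-fold higher [10.7 to 17.1]. In both pairs 3 of the 4 detected genes were at least 2-fold higher, where 13.6% of all genes were in the vehicle pair and 13.5% in the ribavirin pair, and none was 2-fold lower, where 11.7% and 3.63% were. A level over all cells changes with the number of source cells and with the transcripts per cell alike, and these are separated below by cell.

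Between the drug and vehicle libraries without OVA, 1 of the 4 detected genes was at least 2-fold higher in Ribavirin (Il13, 2.18-fold [1.42 to 3.42]), where 16.2% of all genes were, and none was 2-fold lower, where 0.784% were. Il4 was even (ratio 0.999 [0.596 to 1.68]). Between the OVA libraries 3 of 4 were at least 2-fold higher in Ribavirin-OVA, where 21.9% of all genes were, and none lower, where 4.2% were, with ratios of 2.44 for Il4 [2.20 to 2.71], 7.10 for Il5 [5.73 to 8.88] and 4.99 for Il13 [4.50 to 5.54]. These last ratios rested in large part on 1 cell. A single T cell-like cell of Ribavirin-OVA held 719 Il4, 329 Il5 and 1038 Il13 UMIs among 49149 UMIs, which was 61.5%, 52.6% and 51.6% of the UMIs of these genes in its library. Without the top cell of each library the ratios of Ribavirin-OVA over Vehicle-OVA were 1.28 for Il4 [1.12 to 1.48], 3.97 for Il5 and 2.67 for Il13 [2.37 to 3.00], and those of Ribavirin-OVA over Ribavirin were 33.4, 8.57 and 32.2.

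That cell carried 14 Cd3e, 28 Cd3d, 22 Cd3g and 13 Cd4 UMIs, which encode chains of the T cell receptor complex and its helper coreceptor, together with 67 Gata3 and 82 Il1rl1 UMIs. Its doublet score was 0.0149, in a library where 0.61% of the cells were marked as doublets against 4.12% expected. It had more UMIs than 98.1% of the kept cells, 6386 genes and 4 of the 8 neutrophil markers, and whether it was a doublet was not tested further. This cell held 1 Areg UMI. The top Il4 cell of Vehicle-OVA was of another type. It was basophil-like, with 144 Il4, 5 Il13 and 41 Areg UMIs, no Cd3e or Cd3d UMI and 66 UMIs of Mcpt8, a protease gene of basophils, and it held 27.0% of the Il4 UMIs of that library.

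**Figure D1:**
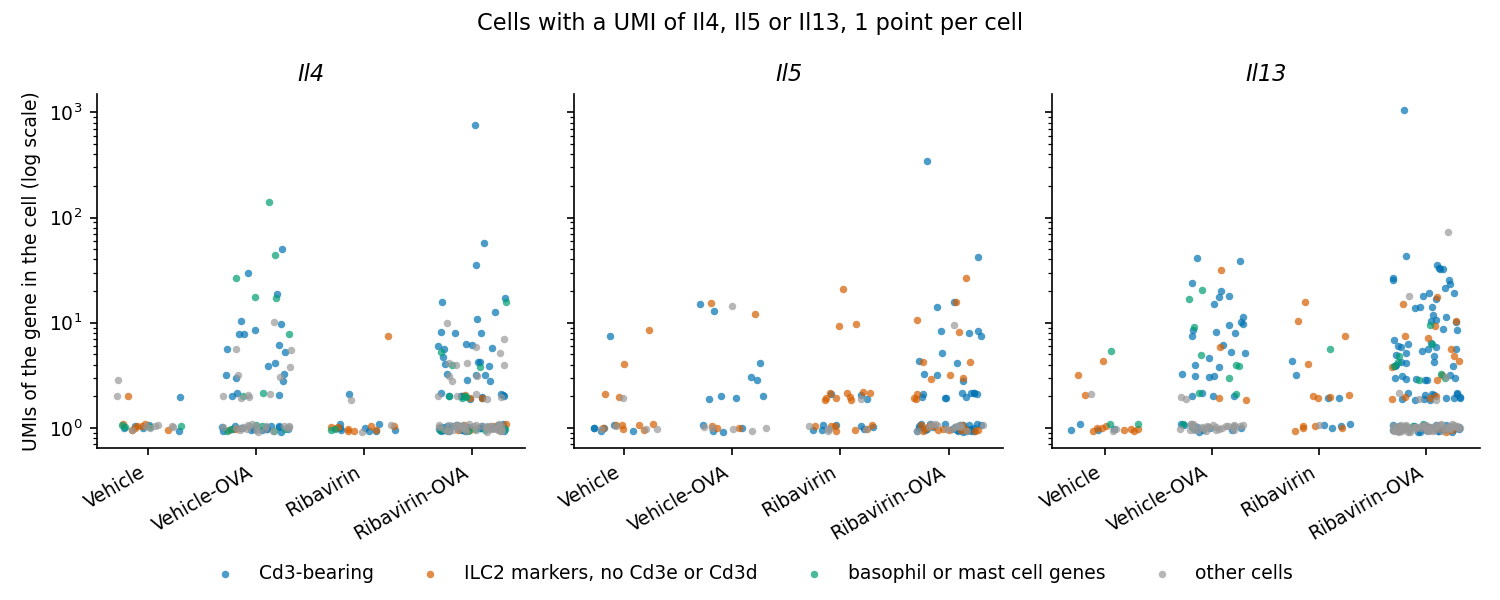
UMIs of Il4, Il5 and Il13 in each positive cell (y axis, log scale) by library (x axis), 1 point per cell, coloured by source. Most points lie at 1 UMI, and the single Ribavirin-OVA cell with 719, 329 and 1038 UMIs stands above all others.

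Then the source of each transcript was read from defining UMIs in the same cell. Cd3-bearing cells had at least 2 UMIs of Cd3e and Cd3d together (6221, 1315, 4152 and 1608 cells). Cells with at least 3 UMIs over 9 basophil or mast cell genes numbered 41, 40, 31 and 59. ILC2-like cells without Cd3, with no Cd3e or Cd3d UMI and at least 3 of the 8 ILC2 markers, numbered 107, 71, 155 and 171. Cd3g was not part of this rule, and cells with more markers of another cell type could pass it. Cd3-bearing cells held 49.0% to 84.3% of the Il13 and Il5 UMIs in the OVA libraries, while in the libraries without OVA ILC2-like cells without Cd3 held 53.1% to 76.7%.

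Cd3-bearing cells held 12.5%, 69.3%, 20.8% and 84.3% of the Il13 UMIs of the 4 libraries, in the order given above. ILC2-like cells without Cd3 held 53.1%, 8.91%, 69.4% and 5.42% of them. The order of both sources was thus opposite in the libraries with and without OVA, on 32 and 72 Il13 UMIs in Vehicle and Ribavirin. For Il5 the Cd3-bearing share was 32.6%, 49.0%, 15.1% and 80.3%, and the share of ILC2-like cells without Cd3 was 53.5%, 30.6%, 76.7% and 16.2%. Without the cell with the most UMIs of the gene in each library, the Cd3-bearing share of Il13 was 14.8%, 66.0%, 26.8% and 67.6% and that of ILC2-like cells without Cd3 63.0%, 9.85%, 60.7% and 11.2%. For Il5 these were 17.1%, 57.8%, 20.3% and 58.4%, and 65.7%, 18.1%, 68.8% and 34.1%, so the order of both sources stood in each library while the Ribavirin-OVA shares of the ILC2-like cells were larger. No Il5 UMI was found in cells with basophil or mast cell genes in any library.

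Il4 had a further source. Cells with basophil or mast cell genes held 49.8% of the Il4 UMIs of Vehicle-OVA (266 UMIs in 14 of 40 cells), beside 38.4% in Cd3-bearing cells (205 UMIs in 36 cells). In Ribavirin-OVA they held 3.85% (45 UMIs in 17 of 59 cells), beside 86.3% in Cd3-bearing cells (1009 UMIs in 62 cells). The order of these sources in Vehicle-OVA rested on 1 cell. Without the top Il4 cell of each library, cells with basophil or mast cell genes held 31.3% in Vehicle-OVA and 10.0% in Ribavirin-OVA, and Cd3-bearing cells 52.6% and 64.4%. Cells outside these 3 kinds held 11.4% and 8.90% of the Il4 UMIs in the OVA libraries. For Il13, 1 ILC2-like cell of Ribavirin-OVA with 1 Cd3d UMI held 74 of the 164 UMIs outside them.

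**Figure D2:**
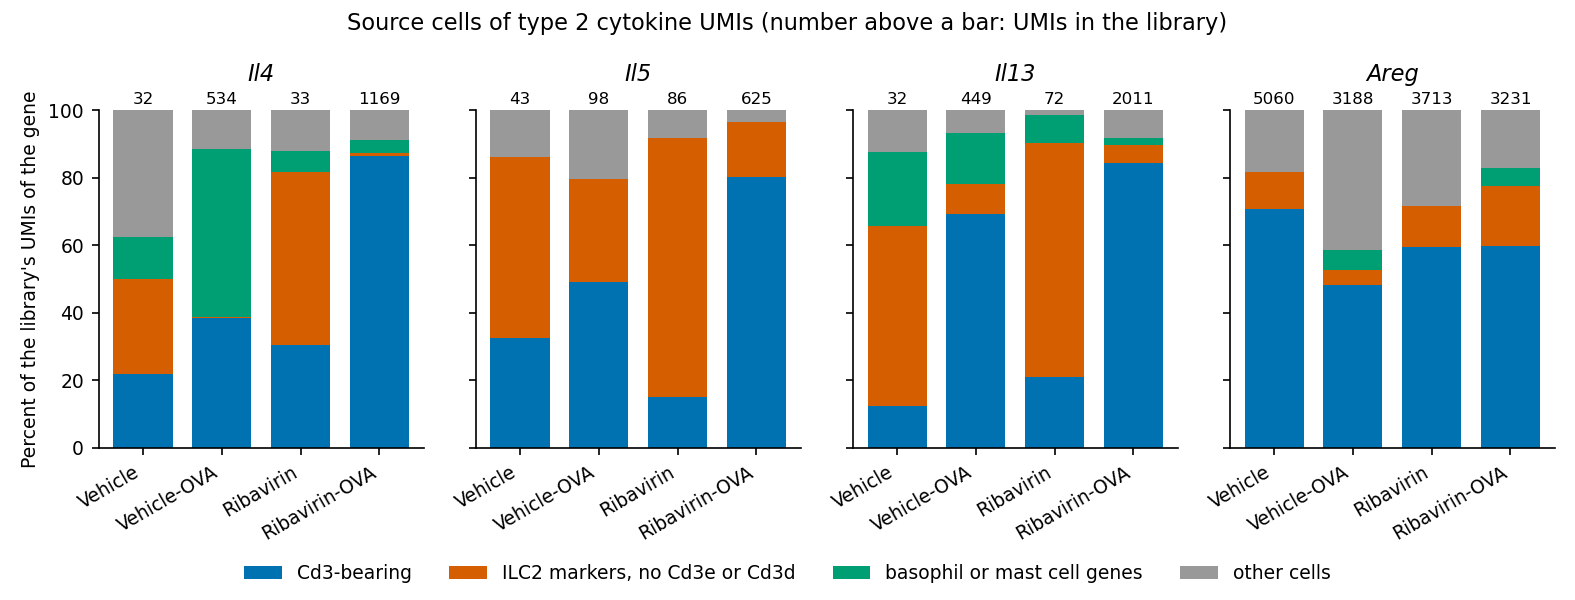
Percent of each library's UMIs of Il4, Il5, Il13 and Areg (y axis) in 4 kinds of source cells, by library (x axis), with the number of UMIs above each bar. The Cd3-bearing share of Il13 is 12.5% and 20.8% without OVA and 69.3% and 84.3% with OVA.

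Among Cd3-bearing cells, the share with an Il13 UMI was 0.0643%, 2.89%, 0.193% and 5.78% from Vehicle to Ribavirin-OVA. The share with an Il4 UMI was 0.0964%, 2.74%, 0.217% and 3.86%, and that with an Il5 UMI was 0.113%, 0.989%, 0.241% and 3.11%. Neutrophil-like cells with a lead of at least 3 markers, which should lack these transcripts, gave 0.141% for Il13 in Vehicle-OVA and 0.728% in Ribavirin-OVA (median 2992 and 3044 UMIs per cell), with 0.0657% and 0.162% for Il4 and 0.0188% and 0.121% for Il5. In Vehicle and Ribavirin 0 of 6895 and 0 of 6589 such cells had a UMI of any of the 3, which allows shares of up to 0.0435% and 0.0455%. The Cd3-bearing shares of both OVA libraries lay above this background, and those of the libraries without OVA rested on 4 to 10 cells.

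The level in Cd3-bearing cells was 0.113, 36.2, 0.516 and 137 CPM for Il13, a ratio of 322 in the vehicle pair [124 to 1188] and 266 in the ribavirin pair [161 to 476]. For Il4 it was 0.197, 23.9, 0.344 and 81.7 CPM, with ratios of 121 [57.8 to 305] and 237 [128 to 496]. For Il5 it was 0.394, 5.59, 0.448 and 40.6 CPM, with ratios of 14.2 [7.69 to 27.9] and 90.8 [52.6 to 172]. Without the top cell, the Ribavirin-OVA levels were 53.3 CPM for Il13, 23.5 for Il4 and 14.003 for Il5, against 31.2, 17.8 and 3.96 in Vehicle-OVA. With the top cell of each library set aside, the ratios of the ribavirin pair were 141 for Il13, 85.2 for Il4 and 36.98 for Il5, and the Il5 ratio of the vehicle pair was 23.4. The Il13 and Il4 levels of the OVA libraries thus lay closer to each other than those of Il5 once 1 cell was set aside from each.

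To compare ILC2s by level, the class of most markers was used, in which each cell takes the class with the most distinct markers of 8 (at least 3). ILC2-like cells of this class numbered 107, 49, 108 and 110 in the 4 libraries, and some carried Cd3. Those with no Cd3e or Cd3d UMI (87, 29, 88 and 72 cells) included 23, 6, 19 and 40 cells with a Cd3g UMI. As a whole the cells with no Cd3e or Cd3d UMI held 17, 40, 48 and 105 Il13 UMIs. Their Il13 level was 4.97-fold higher in Vehicle-OVA than in Vehicle [2.76 to 9.36] and 1.78-fold higher in Ribavirin-OVA than in Ribavirin [1.25 to 2.56]. They held 21, 30, 55 and 87 Il5 UMIs, with ratios of 3.02 [1.67 to 5.55] and 1.29 [0.907 to 1.84], the last of which is within counting error of even. They held 7, 2, 17 and 11 Il4 UMIs, with ratios of 0.604 and 0.526. Between the OVA libraries their Il13 and Il5 ratios of Ribavirin-OVA over Vehicle-OVA were 0.751 [0.517 to 1.11] and 0.829.

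These ratios changed with 1 cell and with the rule. A single cell held 30 of the 40 Il13 UMIs of Vehicle-OVA, and without the top cell of each library the Il13 ratio was 1.63 in the vehicle pair [0.638 to 4.01], within counting error of even, 2.21 in the ribavirin pair [1.46 to 3.43] and 2.49 for Ribavirin-OVA over Vehicle-OVA [1.29 to 5.37]. The Il5 ratios were then 2.44 [1.08 to 5.57], 1.43 [0.916 to 2.26] and 1.11. In the ILC2-like cells without Cd3 by defining UMIs, which held a median of 4233, 10231, 6512 and 16792 UMIs, the Il5 ratios were 0.548 in the vehicle pair [0.308 to 0.988] and 0.701 in the ribavirin pair [0.509 to 0.971], and the Il13 ratios were 0.989 and 0.998. In Vehicle-OVA both rules counted 30 Il5 and 40 Il13 UMIs. These gave 178 and 238 CPM in the 29 cells by class, and 19.2 and 25.6 CPM in the 71 cells by defining UMIs. The rule by defining UMIs admits more cells, so its levels also fall with the UMIs of the added cells. No direction of Il5 with OVA was shared by both rules, and the sets of cells differ.

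In the cells of the class of most markers with no Cd3e or Cd3d UMI, the Il5 level was 178 CPM in Vehicle-OVA and 148 CPM in Ribavirin-OVA. This was above that of T cell-like cells, at 1.66 and 46.5 CPM. Without the top cells the level was 89.2 and 98.6 CPM, against 1.16 and 13.2 CPM. With the Cd3-carrying cells included, the ILC2-like class in Ribavirin-OVA held 38 Il13-positive cells, of which 13 were Cd3-bearing, and 19 Il4-positive cells, of which 10 were. Of the 93 Cd3-bearing Il13-positive cells of Ribavirin-OVA, 61 were T cell-like, 16 had a tie between classes, 13 were ILC2-like, and the rest were in other classes. Of the 38 of Vehicle-OVA, 21 were T cell-like, 12 had a tie and 1 was ILC2-like. Which classes tied was not counted. A tied cell of Vehicle-OVA with 18 Il13 UMIs held 5 T cell, 5 neutrophil and 4 ILC2 markers. Another, with 39 Il13 UMIs, held 5 of each. In Ribavirin-OVA the boundary between T cell-like and ILC2-like cells thus ran through the Cd3-bearing Il13-positive cells. In Vehicle-OVA this rested on 1 ILC2-like cell and on ties that can also involve the neutrophil class.

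**Figure D3:**
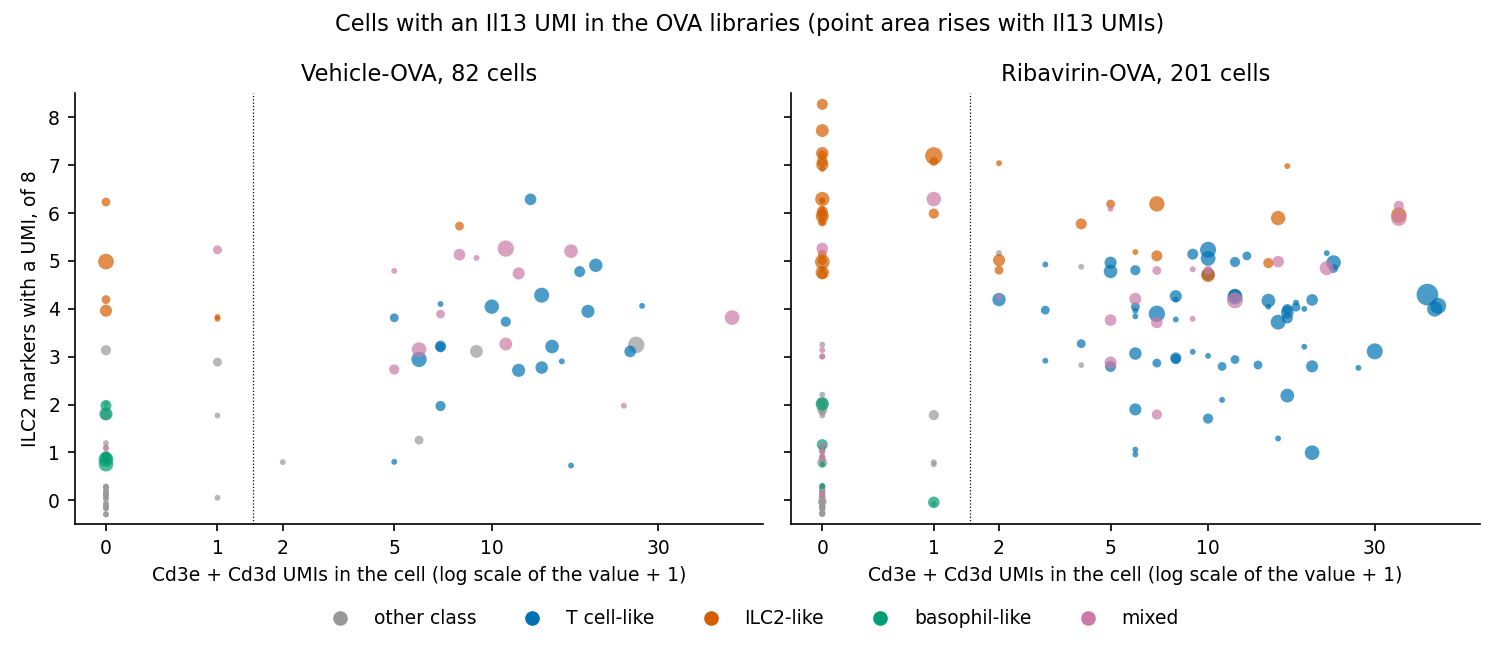
Il13-positive cells of the OVA libraries by Cd3e and Cd3d UMIs (x axis, log scale of the value + 1) and number of ILC2 markers with a UMI (y axis, of 8), coloured by class, with area rising with Il13 UMIs. To the right of the dotted line lie the Cd3-bearing cells, 38 of 82 in Vehicle-OVA and 93 of 201 in Ribavirin-OVA, most of which also hold several ILC2 markers.

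In order to describe the Cd3-bearing Il13-positive cells, genes of T helper subsets and of the type 2 program were read in those with at least 3000 UMIs (37 in Vehicle-OVA, 92 in Ribavirin-OVA), beside the Il13-negative Cd3-bearing cells of that depth. Gata3, the master transcription factor of Th2 cells, was detected in 94.6% of the positive cells in both libraries, against 47.6% and 54.5% of the negative cells. Il1rl1 was detected in 86.5% and 87.0%, against 7.11% and 9.72%. Il17rb, which encodes the receptor chain for IL-25, was detected in 73.0% and 64.1%, against 1.39% and 3.33%. Pparg, a nuclear receptor gene active in type 2 lymphocytes, was detected in 64.9% and 56.5%, against 1.82% and 2.98%. The positive cells thus shared the cytokine receptors of ILC2s while carrying Cd3.

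Cd4 was detected in 94.6% and 93.5% of the positive cells, against 50.04% and 49.1%, whereas Cd8a, of cytotoxic T cells, was detected in 0% and 4.35%, against 24.5% and 25.2%. Signature cytokines of other helper subsets were detected less widely in the positive than in the negative cells. Il17a, of Th17 cells, was detected in 5.41% and 3.26%, against 22.5% and 22.8%, and Ifng, of Th1 cells, in 2.70% and 10.9%, against 26.9% and 33.5%. Foxp3, of regulatory T cells, was detected in 2.70% and 3.26%, against 8.07% and 8.65%. Rora, an ILC2 marker also used by Th17 cells, was detected in 18.9% and 41.3%, against 80.0% and 85.7%. Calca, a calcitonin gene-related peptide gene, was detected in 67.6% and 67.4%, against 2.25% and 5.25%, and Il10, an anti-inflammatory cytokine, in 81.1% and 68.5%, against 9.19% and 9.15%.

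By the same contrast over T cell-like cells (21 positive against 1000 negative in Vehicle-OVA, 61 against 1411 in Ribavirin-OVA), the 5 genes of 8597 with the highest ratio in the lower of both OVA libraries were Il4, Cyp11a1, Calca, Il17rb and Slc17a6. The ratios of positive over negative cells were 226 and 292 for Il4, 150 and 64.0 for Cyp11a1, a steroid synthesis enzyme, and 84.4 and 30.6 for Slc17a6, a vesicular glutamate transporter. In Ribavirin-OVA 1 Il13-positive cell held 719 of the 974 Il4 UMIs of T cell-like cells, and the Il4 ratio without it was not computed. In ILC2-like cells (7 against 42 and 38 against 72), where 795 genes could be compared, the leading genes were Tuba1b (10.6 and 3.38), Tubb5 (5.68 and 2.98), Il10 (3.08 and 2.06), Cox7a2 (2.00 and 1.91) and Hmgb2 (2.28 and 1.85). Tuba1b and Tubb5 encode tubulins. By defining UMIs (4 against 67 cells and 25 against 146), the leading genes of ILC2-like cells without Cd3 were Sla, S100a4, Cxcr6, Il2ra and Ltb. This set also admits cells of other classes, and the list changed with the rule.

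Co-detection of the cytokines in single Cd3-bearing cells was then counted. Of the Il4-positive cells, 25 of 36 in Vehicle-OVA (69.4% [51.9 to 83.7]) and 47 of 62 in Ribavirin-OVA (75.8% [63.3 to 85.8]) also held an Il13 UMI, against 1.02% and 2.98% of the Il4-negative cells. Of the Il5-positive cells, 11 of 13 (84.6% [54.6 to 98.1]) and 36 of 50 [57.5% to 83.8%] held an Il13 UMI, against 2.07% and 3.66%. Il4 and Il5 were found together in 7 of 36 Il4-positive cells (19.4%) and 26 of 62 (41.9% [29.5 to 55.2]). Cells with another of the 3 cytokines thus mostly held Il13 as well.

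Of the Cd3-bearing cells with any of the 3 cytokines, 51 in Vehicle-OVA and 120 in Ribavirin-OVA, all 3 were found in 7 and 24 cells. Il4 and Il13 without Il5 were found in 18 and 23, Il5 and Il13 without Il4 in 4 and 12, and Il4 and Il5 without Il13 in 0 and 2. Il13 alone was found in 9 and 34, Il4 alone in 11 and 13, and Il5 alone in 2 and 12. The positive cells were deeper, with a median of 9217 UMIs for Il4-positive against 5151 for Il4-negative cells in Vehicle-OVA and 10016.5 against 5756.5 in Ribavirin-OVA. When only cells with at least 3000 UMIs were counted, the Il13-positive share of Il4-negative cells was 1.04% and 3.12%. After each cell was thinned to 1000 UMIs, 5 of 12 (41.7%) and 7 of 16 (43.8%) Il4-positive cells held an Il13 UMI, against 0.616% and 1.57%.

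Areg was co-detected with the others in the same cells. Of the Il13-positive Cd3-bearing cells, 29 of 38 in Vehicle-OVA (76.3% [59.8 to 88.6]) and 65 of 93 in Ribavirin-OVA (69.9% [59.5 to 78.97]) held an Areg UMI, against 8.54% and 7.99% of the Il13-negative cells. The cell with the most Il4, Il5 and Il13 UMIs was an exception with 1 Areg UMI, while a Cd3-bearing cell of Vehicle-OVA with 52 Il4, 14 Il5 and 18 Il13 UMIs held 56.

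**Figure D4:**
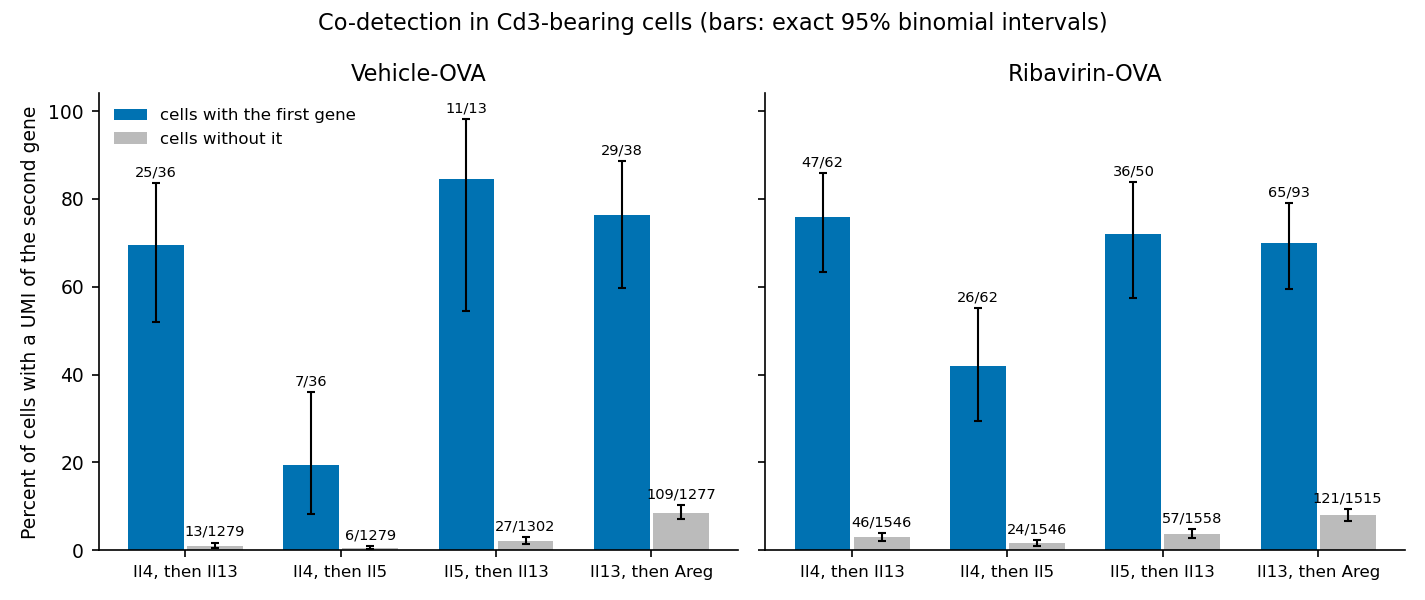
Percent of Cd3-bearing cells with a UMI of a second gene (y axis), for cells with and without a UMI of a first gene (x axis, pairs of genes), in Vehicle-OVA and Ribavirin-OVA, with exact 95% binomial intervals. Il13 is found in 69.4% and 75.8% of Il4-positive cells and in 1.02% and 2.98% of Il4-negative cells.

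ILC2-like cells without Cd3 showed a different set. In Ribavirin-OVA, 26 of them were Il5-positive, of which 12 held an Il13 UMI (46.2%, against 8.97% of the Il5-negative), 18 an Areg UMI and 4 an Il4 UMI. This set of 171 cells admits cells of other classes, beside 72 cells of the ILC2-like class with no Cd3e or Cd3d UMI. Of its 25 Il13-positive cells 21 were of the ILC2-like class, so the share among the Il5-negative cells is lowered by the added cells. In Vehicle-OVA 5 were Il5-positive, of which 3 held Il13 and 0 held Il4. Cells with all 3 of Il4, Il5 and Il13 numbered 0, 7, 1 and 26 over the 4 libraries, of which 7 and 24 in the OVA libraries were Cd3-bearing.

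Basophil-like cells were scarce, with 1, 17, 3 and 26 cells, and carried Il4 and Il13 without Il5. In Vehicle-OVA 8 of 17 held an Il4 UMI and 5 of 17 an Il13 UMI, and in Ribavirin-OVA 8 of 26 and 5 of 26. The Il4 level was 2064 CPM in Vehicle-OVA, and 356 CPM without its top cell, and 202 and 89.6 CPM in Ribavirin-OVA. Mast cell-like cells with an Il4 UMI numbered 3 of 7 in Vehicle-OVA and 6 of 15 in Ribavirin-OVA. Over cells with basophil or mast cell genes, the Il4 level in Vehicle-OVA was 902 CPM [797 to 1018], or 414 CPM without the top cell, and in Ribavirin-OVA 44.3 CPM, or 29.5 CPM without it. Of the Il4-positive cells with these genes, 5 of 14 (35.7% [12.8 to 64.9]) and 6 of 17 (35.3%) held an Il13 UMI, against 23.1% and 16.7% of the negative cells.

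Il4 UMIs were also found in B cell-like cells of Ribavirin-OVA. Of 130 such cells, 13 (10.0%) held 37 Il4 UMIs, and all 13 carried Cd79a, which encodes a chain of the B cell receptor complex. They held 13560 to 131917 UMIs each (median 36953, against 4489 in those without Il4), 10 of them had a UMI of Mki67, a gene of dividing cells, and 1 had a Cd3e or Cd3d UMI. Among cells with at least 10000 UMIs, Il4 was detected in 13 of 35 B cell-like cells (37.1%), in 19 of 431 plasma cell-like cells (4.41%), in 3 of 852 monocyte/macrophage-like cells and in 1 of 175 neutrophil-like cells. The share in B cell-like cells was above that in these other classes, with the plasma cell-like cells the closest in depth (median 20194 against 21437 UMIs). In Vehicle-OVA 2 of 239 B cell-like cells held an Il4 UMI, both with Cd3e or Cd3d, and no Il4 UMI was found in the 295 and 309 B cell-like cells of Vehicle and Ribavirin. Il5 had 0 UMIs and Il13 had 2 UMIs in the 13 cells, and whether doublets contributed was not tested.

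Il9 had no UMI in any cell of any library, before or after filtering. With 0 of 24305, 17206, 19642 and 8763 cells, shares of up to 0.0123%, 0.0174%, 0.0153% and 0.0342% are allowed, and levels of up to 0.0199, 0.0320, 0.0193 and 0.0357 CPM. The same was seen for Il3, a growth factor for basophils and mast cells, which also had 0 UMIs.

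Areg differed from the interleukins in amount and in source. It had 5060, 3188, 3713 and 3231 UMIs in 1074, 520, 800 and 461 cells of Vehicle, Vehicle-OVA, Ribavirin and then Ribavirin-OVA, or 33.5, 34.0, 23.8 and 38.4 CPM. The ratio was 1.02 in the vehicle pair [0.971 to 1.06], 1.61 in the ribavirin pair [1.54 to 1.69], and 0.711 for Ribavirin over Vehicle [0.681 to 0.742]. Cd3-bearing cells held 70.8%, 48.1%, 59.4% and 59.7% of its UMIs. It was found in the libraries without OVA at levels that the interleukins did not reach, and its levels in the compared libraries were within 2-fold of each other.

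Among classes with at least 20 cells, the Areg level was highest in ILC2-like cells in each library, at 1258, 868, 672 and 719 CPM, and 44.9% to 63.0% of these cells were positive. T cell-like cells followed with 114, 150, 82.6 and 152 CPM, and 9.73% to 12.0% were positive. Within T cell-like cells the OVA ratio was 1.31 under vehicle [1.22 to 1.41] and 1.84 under ribavirin [1.72 to 1.98]. Within ILC2-like cells it was 0.690 [0.589 to 0.806] and 1.07 [0.944 to 1.21]. The intervals of ILC2-like and T cell-like cells did not overlap in any library, while basophil-like cells of Ribavirin-OVA, at 127 CPM [74.0 to 203], could not be told from its T cell-like cells by counting error. The 17 basophil-like cells of Vehicle-OVA were at 783 CPM [605 to 996], above its T cell-like cells and within the interval of its ILC2-like cells [759 to 988], with 66 UMIs in 2 cells, and at 297 CPM without the top cell.

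In neutrophil-like cells the Areg level was 4.00, 20.1, 8.54 and 8.63 CPM, a ratio of 5.04 in the vehicle pair [4.09 to 6.28] and of 1.01 in the ribavirin pair. In those with a lead of at least 3 markers it was 2.39, 17.1, 5.28 and 3.74 CPM. In epithelial-like cells, which the CD45 enrichment should have removed, it was 7.33, 84.3, 13.6 and 41.3 CPM, with ratios of 11.5 [7.95 to 17.1] and 3.05 [2.58 to 3.61]. A single epithelial-like cell held 155 of the 217 UMIs in Vehicle-OVA, and without the top cell of each library the ratios were 7.23 [4.07 to 13.7] and 2.32 [1.92 to 2.81]. Cells with at least 10 Areg UMIs numbered 142, 88, 94 and 74, of which 102, 25, 46 and 35 were T cell-like, and 26 of the 88 in Vehicle-OVA were neutrophil-like. Of all Areg-positive neutrophil-like cells of Vehicle-OVA, 11 were Cd3-bearing, 6 held basophil or mast cell genes, 1 was ILC2-like without Cd3 and 217 were none of these. B cell-like and plasma cell-like cells were at 0.597 to 3.28 CPM.

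Areg-positive Cd3-bearing cells of at least 3000 UMIs (130 in Vehicle-OVA, 184 in Ribavirin-OVA) were less uniform than the Il13-positive ones. Foxp3 was detected in 33.1% and 23.4% of them, against 4.81% and 6.22% of the Areg-negative cells, and Il1rl1 in 44.6% and 57.6%, against 5.28% and 8.42%. Il17a was detected in 23.8% and 16.3%, against 21.8% and 22.4%. Ifng was detected in 6.92% and 15.8%, against 28.5% and 34.4%, and Cd8a in 3.85% and 7.07%, against 26.2% and 26.3%. Cells with regulatory T cell and with IL-33 receptor transcripts were thus both more frequent among the Areg-positive cells.

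**Figure D5:**
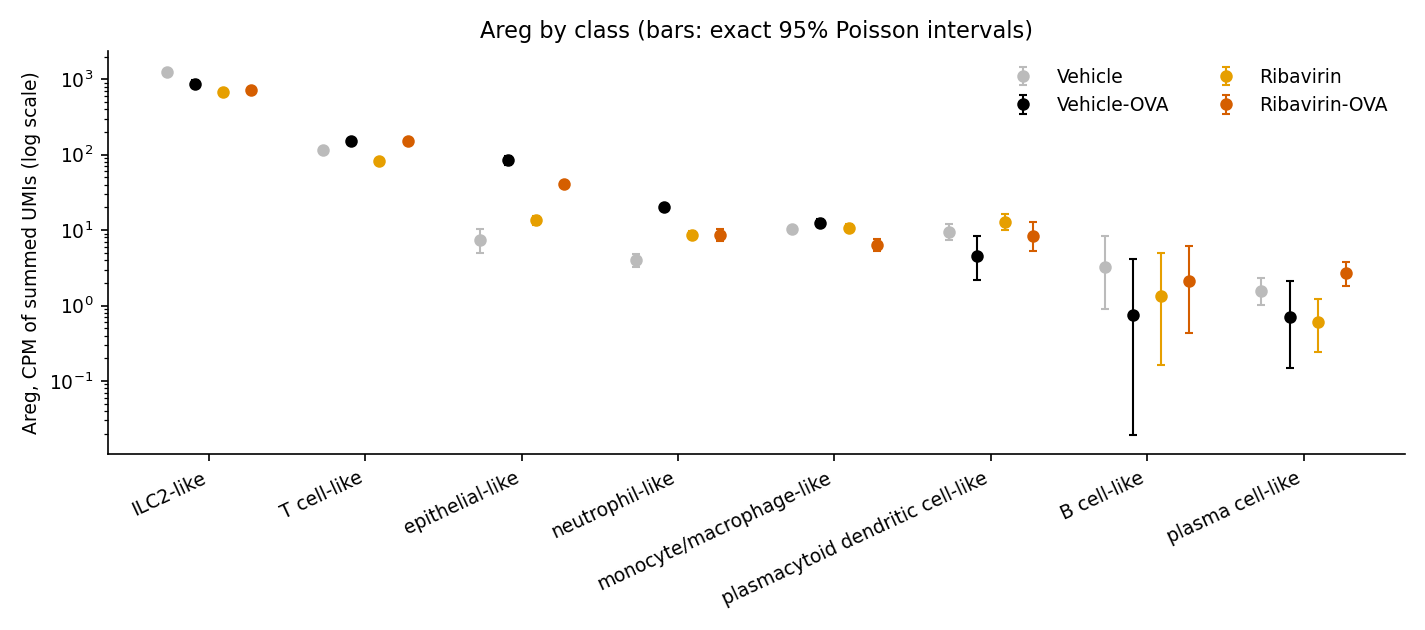
Areg level (y axis, CPM of summed UMIs, log scale) by class (x axis) and library (colour), with exact 95% Poisson intervals. ILC2-like cells lie at 672 to 1258 CPM and T cell-like cells at 82.6 to 152 CPM, and the neutrophil-like and epithelial-like points of Vehicle-OVA lie above those of Vehicle.

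The genes whose pattern was most like that of each cytokine were sought among 16473 genes by Pearson's r of log2(CPM + 1) over 49 sums of cells, 1 per class and library with at least 20 cells. The points share libraries and some of the genes also define classes, so r is a description. For Il13 they were Il1rl1 (0.935), Il4 (0.917), Tph1 (0.893), Il5 (0.865) and 4932438H23Rik (0.864), and for Il4 they were Il13 (0.917), Il1rl1 (0.857), Tph1 (0.830), Cyp11a1 (0.782) and 4932438H23Rik (0.769). For Il5 they were 9230102O04Rik (0.9497), Calca (0.940), Stab2 (0.904), Vipr2 (0.886) and Popdc3 (0.882). For Areg they were C030034L19Rik (0.856), Il1rl1 (0.849), Neb (0.836), Vipr2 (0.830) and 4932438H23Rik (0.819). Tph1 encodes an enzyme of serotonin synthesis, and Vipr2 a receptor for vasoactive intestinal peptide.

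Finally, other genes of the pathway were read over all cells from lists by role. Over all genes 13.6% were at least 2-fold higher and 11.7% lower in the vehicle pair, and 13.5% and 3.63% in the ribavirin pair, so that in lists of this length 1 or 2 genes past the fold are near the share of all genes. Of 9 receptor genes for these cytokines, 4 were at least 2-fold higher and 0 lower in Vehicle-OVA than in Vehicle, and 3 were higher and 0 lower in Ribavirin-OVA than in Ribavirin, with median log2 ratios of 1.00 and 0.27 beside 0.00 and 0.43 over all genes. Il4ra, the receptor chain shared by IL-4 and IL-13, had ratios of 2.36 and 1.20. Csf2rb, the beta chain of the IL-5 receptor, had 1.99 and 0.858, and Il2rg, the common gamma chain, had 0.595 and 0.943. Neutrophil-like cells were 31.04%, 69.5%, 37.2% and 32.2% of the cells from Vehicle to Ribavirin-OVA, and the part of this share in the ratios was not tested.

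Target genes of IL-4 and IL-13 had higher medians than the receptor list. Of 12 tested in the vehicle pair 9 were at least 2-fold higher and 1 lower, and of 13 in the ribavirin pair 11 were higher and 1 lower, with median log2 ratios of 2.42 and 2.43. Arg1, an arginine-degrading enzyme of alternatively activated macrophages, had ratios of 140 and 24.9, Ccl24, an eosinophil chemokine, 632 and 102, and Chil3, a chitinase-like protein, 6.46 and 5.00. Among 14 transcription factors 2 and 3 were higher, none lower, and Bhlhe40, a factor of cytokine-producing T cells, had ratios of 2.20 and 1.76. These counts are near the share of all genes. Of 6 inducing signals 0 and 1 were higher and 1 and 0 were lower in the vehicle and ribavirin pairs, and Il33, an alarmin, had 1.22 and 0.926. Of the receptors for these signals, 2 of 10 and 4 of 11 were higher and none lower.

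Among T helper subset genes, 2 of 12 were higher and 3 lower in the vehicle pair and 5 higher and 1 lower in the ribavirin pair, with ratios of 0.295 and 0.457 for Il17a. Of 8 other cytokines of these cells 3 and 2 were higher and 1 was lower in each pair, with Il10 at 4.72 and 4.40 and Calca at 8.45 and 12.7. The neighbours of Il4, Il5 and Il13 on chromosome 11 did not share their difference. Of 4 tested, 0 were higher in either pair and 1 was lower in the vehicle pair. Rad50, a DNA repair gene, had ratios of 0.489 and 0.996, Irf1 1.16 and 0.934, and Kif3a 0.767 and 1.04. These are ratios over all cells. T cell-like cells were 23.0%, 5.93%, 18.0% and 16.8% of the cells from Vehicle to Ribavirin-OVA, and the part of this share in the ratios was not tested.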

How the data were processed

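The deposited count matrices held raw UMI counts per gene and barcode, made by the authors with Cell Ranger 5.0.0 and mm10 per the submitters' processing notes from 10x 3′ libraries. CD45+ cells were enriched by magnetic sorting per the labels, while the series text names flow sorting. The gene list held no T cell receptor or immunoglobulin segment genes. Barcodes with at least 500 UMIs, 200 genes and under 10% mitochondrial UMIs were kept, and doublets marked by Scrublet (scanpy 1.11.5, expected 0.4% per 1000 barcodes) were removed, 0.61% to 5.53% against 4.12% to 11.3% expected. Each cell took the class with the most distinct markers of 8, of 17 classes, with at least 3 needed, a tie called mixed and under 3 unassigned. The class names rest on these markers alone, and 2.83% to 4.70% of the cells were mixed and 3.52% to 7.60% unassigned. The reading of sources by defining UMIs was added after the data were seen. The basophil or mast cell genes were Mcpt8, Cd200r3, Prss34, Fcer1a, Ms4a2, Cma1, Tpsb2, Tpsab1 and Mcpt4.

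Levels were CPM of UMIs summed over cells, and cells were not treated as replicates. With 1 library per group no p-value was computed. Ratios over all genes used genes with at least 20 UMIs in the pair, and a ratio of 2 or more was counted. Named were the 5 genes, at most 3 genes per pathway list (those with the most UMIs), the 5 genes most like each member (at least 50 UMIs) and the 5 genes leading the contrast of Il13-positive and Il13-negative cells. The subset genes described in Cd3-bearing cells, and single genes and cells such as the top cells and the B cell-like cells, were chosen after their values were seen. Members, markers and lists were chosen with earlier results of these data known. Alternatives were cell filters, class rules, thinning, at least 2 UMIs and leaving out the top cells. Scripts used numpy 2.4.6, pandas 2.3.3 and scipy 1.17.1, and were tested on simulated data.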

Additional observations from a re-analysis of the deposited data

Results flagged for a closer look

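In monocyte/macrophage-like cells the Areg level of the OVA library over its partner had a ratio of 1.20 under vehicle [1.02 to 1.40] and of 0.596 under ribavirin [0.484 to 0.730]. It was singled out because the only library of each pair moved in opposite directions. Without the top cell of each library the ratios were 1.17 [0.994 to 1.38] and 0.531 [0.422 to 0.663], so the first was then within counting error of even. The difference between the pairs was not tested, since each group had 1 library.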

How the results depend on the processing

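Values here are log2 ratios of CPM for Vehicle-OVA over Vehicle (vehicle pair), Ribavirin-OVA over Ribavirin (ribavirin pair) and Ribavirin-OVA over Vehicle-OVA (OVA pair), with the reported value in parentheses. Over all cells, without the 1 cell with the most UMIs of the gene in each library, Il4 was 5.06 (6.04) in the ribavirin and 0.36 (1.29) in the OVA pair, Il5 3.099 (3.75) and 1.99 (2.83), and Il13 5.01 (5.69) and 1.42 (2.32). Without the 10 such cells Il4 was 3.97 (4.75), 5.13 and 0.83 in the vehicle, ribavirin and OVA pairs, Il5 0.99 (1.88), 3.09 and 3.30, Areg -0.18 (0.023) and 0.50 (0.69) in the vehicle and ribavirin pairs, and Il13 6.23 in the ribavirin pair, 1.83 in the OVA pair and 0.50 (1.12) for Ribavirin over Vehicle. As a mean of single-cell CPM, Il4 was 3.87, 4.45 and 0.57, Il13 3.14 (4.50), 4.47 and 2.15, Areg -0.66, 0.26 and 0.39 (0.17), and Il5 0.83 and 2.70 in the first pairs. With mitochondrial UMIs under 5%, Il4 was 1.59 in the OVA pair, Il5 1.07 in the vehicle and 3.82 in the OVA pair, Il13 6.25 in the ribavirin and 2.78 in the OVA pair, and Areg 0.55 and 0.040 in the same pairs. Without any filter on cells Il5 was 3.41 in the ribavirin pair.

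The split between T cell-like and ILC2-like cells was the least stable part. When ILC2-like cells with a Cd3e or Cd3d UMI were left out, their Il4 was -0.73 (1.55) in the vehicle pair and their Il13 0.83 (1.83) in the ribavirin and -0.41 (0.87) in the OVA pair. By defining UMIs, ILC2-like Il4 was -3.42, Il5 -0.87 (1.71) and Il13 -0.016 (1.98) in the vehicle pair, and Il13 -0.0023 in the ribavirin and -0.71 in the OVA pair. In Vehicle-OVA this set held 30 Il5 and 40 Il13 UMIs in 71 cells, against 46 and 44 UMIs in 49 cells of the class. Its levels were 19.2 and 25.6 CPM, against 176 and 168 CPM, so these values also reflect the other cells it admits. With the class of the most marker UMIs, ILC2-like Il13 was 3.21 in both the vehicle and ribavirin pairs, Il5 1.24 (-0.53) in the OVA pair and Areg 0.12 (-0.54) in the vehicle pair, while T cell-like Il4 was -0.40 (2.61) in the OVA pair, Il13 5.45 (8.64) in the ribavirin and -0.045 (2.66) in the OVA pair, and Areg -0.055 (0.39) and -0.73 (0.88) in the vehicle and ribavirin pairs. With a lead of at least 2 markers, ILC2-like Il13 was 0.032 in the vehicle pair. With mitochondrial UMIs under 5%, ILC2-like Il13 was 0.64 and 2.71 in the vehicle and ribavirin pairs and Il5 1.03 in the OVA pair. Without the top cell, T cell-like Il13 was 7.31 in the ribavirin pair, ILC2-like Il13 0.67 in the vehicle pair and ILC2-like Areg 0.025 (-0.27) in the OVA pair. The cause was not tested for any of these.

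The percent of Il4-positive cells that were T cell-like was 31.2 in Ribavirin-OVA. It was 43.5 with at least 2 UMIs, 9.03 by the most marker UMIs, 23.6 with a lead of at least 2 markers and 43.1 by defining UMIs, which gave 43.9 in Vehicle-OVA (20.7). For Il13-positive cells of Ribavirin-OVA it was 30.3, and 45.3, 8.46, 20.4 and 46.3 under the same rules, and for those of Vehicle-OVA it was 25.6, with 14.6 by the most marker UMIs and 46.3 by defining UMIs. Of Il4-positive T cell-like cells in Ribavirin-OVA 71.1% held Il13, against 46.7% after thinning and 53.8% by the most marker UMIs. None of the summary values moved beyond their counting error with at least 1000 UMIs, doublets kept, mitochondrial UMIs under 20%, shared barcodes left out, or at least 2 or 4 markers. The cells called by defining UMIs, the ILC2-like cells with no Cd3e or Cd3d UMI and the counts without top cells were chosen after seeing the data. No paired analysis was possible because each group had 1 library, which also allowed no leaving out of replicates.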
